A study of Homo sapiens with 4 samples.

Results

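The receptors EGFR, ERBB2, ERBB3 and MET and the ligands AREG, EREG, HBEGF, TGFA, BTC and NRG1 were followed in RNA-seq of ACHN cells after silencing of PRR11. ACHN is an established line from a human renal cancer. The genes were chosen by name, and all 10 were found among the 36359 genes of the count table. The groups compared were ACHN cells that received a control siRNA (siNC, 2 libraries) and ACHN cells that received siPRR11 (2 libraries). Both groups went through the same siRNA transfection with Lipofectamine 3000, and the time from transfection to harvest and the siPRR11 duplex of each library are not given in the sources used here. Whether the 2 libraries of a group came from separate cultures is not given for these libraries, so p-values measure the spread between these libraries, which may be technical.

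The ERBB receptors are tyrosine kinases at the cell surface that pair up when a ligand binds and then pass the signal to RAS, PI3K and STAT proteins. The EGF family ligands are made as membrane proteins and are cut free by metalloproteases of the ADAM family. AREG, TGFA, EREG, HBEGF and BTC bind EGFR, and NRG1 binds ERBB3, which relies on a partner such as ERBB2 for kinase activity. MET is a separate receptor tyrosine kinase, bound by HGF, and activating mutations of MET are known from papillary renal carcinoma.

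Depth was high, with 59003839 to 92612749 counted reads per library. Counting error alone did not account for the difference between libraries of 1 group (chi-square over its degrees of freedom 20.8 for siNC, 14.1 for siPRR11). PRR11 itself lay at 41.3 and 40.4 CPM in the siNC libraries and at 15.3 and 14.02 CPM in the siPRR11 libraries, where CPM are counts scaled to the size of the library after TMM normalization (log2 fold change -1.48, standard error (SE) 0.0909, edgeR adjusted p = 3.35e-06). Of the markers of the labelled cell type, PAX8, a transcription factor of the renal tubule lineage, was at 34.6 to 49.8 RPKM (counts scaled to the total of the library, without TMM, and divided by exonic length in kilobases). KRT8, an epithelial keratin, was at 167 to 221.6 RPKM, whereas the tubule genes CDH6, LRP2, CUBN and AQP1 were all below 0.1 RPKM. Leukocyte and endothelial markers were at or near 0 in every library (PTPRC, CD3E, PECAM1, CDH5 and VWF below 0.04 RPKM), except CD68 at 20.3 to 27.95 RPKM. The epithelial marker EPCAM fell by 0.65 on the log2 scale and KRT18 rose by 0.36 (edgeR adjusted p = 0.000257 and 0.00886), and among the tubule markers reported here LHX1 fell and CDH16 rose. The part of these shifts in the other results was not tested.

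After silencing of PRR11, 1 of the 10 genes passed an adjusted p-value of 0.05. This was the ligand AREG (amphiregulin), which fell to 69.5% of its siNC level. The other 9 did not pass it. EGFR and MET, by far the most abundant members, were at 84.4% and 106.4% of their siNC levels. The test was edgeR's quasi-likelihood test over 21630 genes with Benjamini-Hochberg adjustment, in which 16.7% of all genes passed this threshold (called hereafter), 7.61% higher and 9.14% lower in siPRR11 cells. The 1 member of 10 that was called lower stands beside these 9.14%, and the count of members is too small to read a difference from it. EGFR, ERBB3, EREG, BTC and NRG1 had edgeR adjusted p between 0.0625 and 0.0749, and without a filter on low counts EGFR, EREG and NRG1 were called as well. Without that filter 4460 of 34506 genes were called. With the replicate number as a block, 7 members and 6988 of the 21630 genes were called. Whether libraries of the same number were paired is not given. In 7 of the 10 members the normalized levels of the groups did not overlap, and this held for 58.4% of all genes tested. The median log2 fold change was -0.19 over the members and 0.00 over all genes tested. On the log2 of RPKM plus 1, 61.5% of the genes that limma called were higher, against 45.4% in the test on counts, and it called no member.

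**Figure D1:**
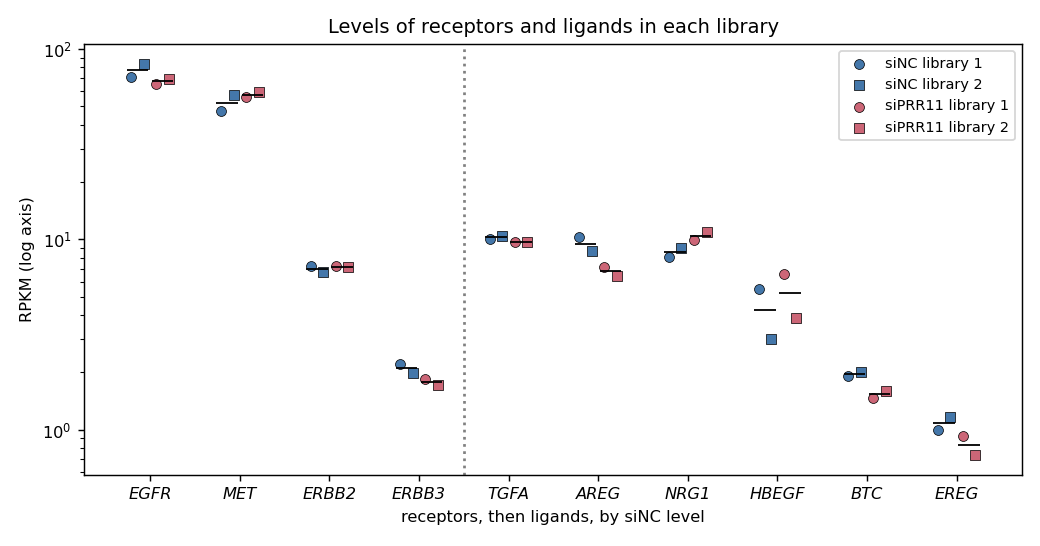
RPKM (log axis) of the 4 receptors and 6 ligands in each siNC (blue) and siPRR11 (red) library, with short lines at the group means. EGFR and MET lie between 47.2 and 83.8 RPKM, and the other 8 genes are at 10.9 RPKM or less.

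Levels per length can be ordered across genes in RPKM. In siNC cells the order of the means was EGFR (77.7 ± 8.68 RPKM, SD, n = 2), MET (52.3 ± 7.21), TGFA (10.3 ± 0.262), AREG (9.45 ± 1.14), NRG1 (8.55 ± 0.708), ERBB2 (6.98 ± 0.376), HBEGF (4.25 ± 1.75), ERBB3 (2.10 ± 0.166), BTC (1.96 ± 0.0629) and EREG (1.08 ± 0.122). The libraries of TGFA and AREG, of AREG and NRG1, and of ERBB3 and BTC overlapped, so these neighbours in the order could not be told apart. In siPRR11 cells EGFR (67.8 ± 2.78 RPKM, SD, n = 2) and MET (57.5 ± 2.25) kept the highest levels, but AREG (6.79 ± 0.566) came after NRG1 (10.4 ± 0.679), TGFA (9.65 ± 0.00435) and ERBB2 (7.18 ± 0.0746). There the libraries of AREG overlapped with those of ERBB2 and of HBEGF (5.23 ± 1.92).

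EGFR, the receptor of most of these ligands, is found on the plus strand of chromosome 7 (GRCh38), between 55019021 and 55211628. It was at 909.5 and 1067 CPM in the siNC libraries and at 808.7 and 859.7 CPM in the siPRR11 libraries. Neither siPRR11 library reached the level of a siNC library, but the siNC libraries were farther apart than the nearest libraries of the groups. The log2 fold change was -0.24 (SE 0.0853, 95% interval -0.43 to -0.06, edgeR adjusted p = 0.0721). It was -0.36 without siNC library 1 (adjusted p = 0.000829) and -0.13 without siNC library 2 (adjusted p = 0.303), so the siNC library left out decided the call. An antisense gene, EGFR-AS1, covers 1.49% of the exonic bases of EGFR, and the use of strand in counting is not given in the sources used here.

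MET is on the same chromosome, from 116672390 to 116798386 on the plus strand, and no other gene of the table shares its exonic bases. Its levels were 337.7 and 411.2 CPM in siNC cells and 386.7 and 409.9 CPM in siPRR11 cells. The groups overlapped, since siNC library 2 was the highest of all and siNC library 1 the lowest. The log2 fold change of 0.09 (SE 0.0919, edgeR adjusted p = 0.564) had a 95% interval from -0.11 to 0.29, which corresponds to 0.926 to 1.22 times the siNC level. Without siNC library 1 the value was -0.05, and without siNC library 2 it was 0.23 with an adjusted p of 0.0431.

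ERBB2, the receptor that has no ligand of its own, was nearly level in the 4 libraries. It was at 76.0 and 70.5 CPM in siNC cells and at 73.4 and 72.5 CPM in siPRR11 cells, so that both siPRR11 libraries lay between the siNC libraries. The log2 fold change was -0.01 (95% interval -0.17 to 0.16, edgeR adjusted p = 0.968), and its sign changed with the setting. Exons of PGAP3 and MIEN1 on the other strand cover 7.41% of the exonic bases of ERBB2.

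ERBB3, the neuregulin receptor with little kinase activity of its own, was at 19.6 and 17.5 CPM in siNC cells and at 15.7 and 14.6 CPM in siPRR11 cells. The groups did not overlap. For ERBB3 the log2 fold change was -0.29 (SE 0.101, 95% interval -0.51 to -0.07, edgeR adjusted p = 0.0697), and without siNC library 2 it was -0.37 with an adjusted p of 0.0179. The other fits without 1 library gave -0.35 to -0.21, none past the threshold. Of the RPKM summed over EGFR, ERBB2, ERBB3 and ERBB4, EGFR held 87.9% to 90.6% in each library, ERBB2 7.26% to 9.66% and ERBB3 2.15% to 2.74%, where the groups overlapped for EGFR and ERBB3. The share of ERBB2 was 8.94% and 7.26% in the siNC libraries and 9.66% and 9.07% in the siPRR11 libraries, without overlap. Because EGFR makes up most of the sum, this share also depends on the level of EGFR. ERBB2 itself had a log2 fold change of -0.01, and its groups overlapped in CPM. ERBB4, the fourth receptor of the family, had only 6 and 9 counts in the siNC libraries and 8 and 12 in the siPRR11 libraries.

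**Figure D2:**
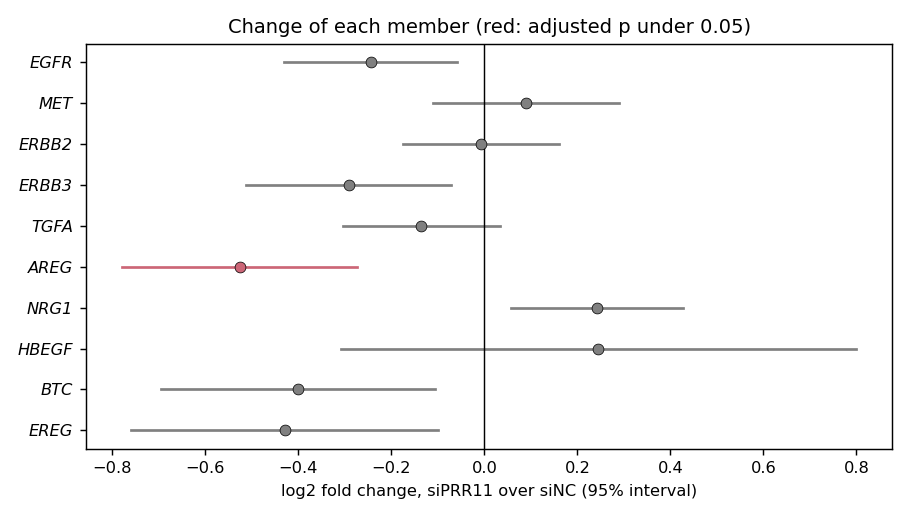
Log2 fold change of each member, siPRR11 over siNC, with its 95% interval from edgeR's quasi-likelihood fit. AREG is the member past an adjusted p of 0.05 (red), at -0.53, and the interval of HBEGF is the widest, from -0.31 to 0.80.

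AREG, an EGFR ligand with affinity for heparin, was the only member called. It was at 17.2 and 14.5 CPM in the siNC libraries and fell to 11.6 and 10.4 CPM in the siPRR11 libraries. The groups did not overlap, and in such bulk libraries fewer cells with AREG and less AREG RNA per cell cannot be told apart. This was a log2 fold change of -0.53 (SE 0.115, 95% interval -0.78 to -0.27, edgeR adjusted p = 0.00903), that is, between 0.583 and 0.827 times the siNC level. Fits without 1 of the 4 libraries gave values from -0.64 to -0.40. Without siPRR11 library 2 it was -0.45 with an adjusted p of 0.0568, and limma on log2(RPKM + 1) gave -0.42 on that scale with an adjusted p of 0.0672, so the call did not hold there.

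AREG lies on chromosome 4 from 74445134 to 74455009, and EREG and BTC lie on the same stretch of that chromosome, a feature that the choice of genes by name did not use. The start of EREG (epiregulin) lies at -79.99 kb from that of AREG, and BTC (betacellulin) starts 349.6 kb after it on the other strand. EREG was at 5.80 and 6.81 CPM in siNC cells and at 5.19 and 4.14 CPM in siPRR11 cells. Its groups did not overlap, and the log2 fold change was -0.43 (SE 0.152, edgeR adjusted p = 0.0749). It was -0.55 without siNC library 1 (adjusted p = 0.0134) and -0.60 without siPRR11 library 1 (adjusted p = 0.0376), but -0.32 without siNC library 2 (adjusted p = 0.199) and -0.28 without siPRR11 library 2 (adjusted p = 0.448). BTC was at 5.48 and 5.74 CPM in siNC cells and at 4.07 and 4.42 CPM in siPRR11 cells, again without overlap. The log2 fold change of BTC was -0.40 (SE 0.135, edgeR adjusted p = 0.0625), and it stayed between -0.46 and -0.34 with 1 library left out, not past the threshold in any of these fits. No exon of another gene in the table overlaps with AREG, EREG or BTC.

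Short stretches of the AREG and EREG promoters are shown because AREG was the called ligand and EREG is its nearest neighbour in the family. They come from the RefSeq promoter table (GRCh38.p14, 250 bases before to 50 after the start of the gene), which held 8 of the 10 members, all but ERBB3 and NRG1. For genes with several entries the one nearest to the start in the count table was used. The RefSeq starts for AREG and EREG lie 2 bases from those of the count table. Those of EGFR and HBEGF lie 4 and 28 bases away. For BTC, ERBB2, MET and TGFA the distances are 163, 180, 194 and 367 bases, so these windows are not aligned to the starts in the count table. Capitals mark the motif, and all are on the plus strand, 5′ to 3′. The first is a match to the TATA box before AREG at chr4:74445095-74445124, which begins 29 bases before the start. The second is a match to the cAMP response element (TGACGTCA) before AREG at chr4:74445060-74445089, which begins 65 bases before it. The third is a match to the TATA box before EREG at chr4:74365101-74365130, which begins 32 bases before the EREG start.
AREG TATA box: cccggctgagccTATAAAgcggcaggtgcg
AREG cAMP response element: cggccgggcctTGACGTCAtgggctgcggc
EREG TATA box: ggggctccctagTATAAAgttcgcagcacc

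The letters TATAAA, on either strand, were found in 11.5% of 35116 promoters of this length, and TGACGTCA in 1.8%. Among the 8 members with a promoter, TATAAA was found in AREG and EREG, and TGACGTCA in AREG. The GC box GGGCGG, on either strand, was found in 45.0% of all promoters. It occurred 3 times each in the promoters of EGFR and MET, 5 times in that of HBEGF, 4 times in that of TGFA, once each in those of AREG and BTC, and not in those of EREG and ERBB2. The AP-1 motif TGANTCA, found in 7.7% of all promoters, occurred in ERBB2 alone among the members. A match of letters is a description of the sequence, and none of these matches was tested against the counts.

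Within 1000 kb of the AREG start, 12 genes were tested, AREG, EREG and BTC included. This window was chosen after the values of these genes had been seen. Of the other 9 genes, 8 had a negative and 1 a positive log2 fold change, beside 10755 negative values among the 21630 genes tested. The chemokine genes CXCL1, CXCL2, CXCL3 and CXCL8 were among the 8, at -0.71, -1.04, -0.62 and -0.38, none past the threshold. The groups overlapped for CXCL1, CXCL2 and CXCL3, but not for CXCL8. CXCL2 was at 9.20 and 4.59 CPM in the siNC libraries and at 4.71 and 2.01 CPM in the siPRR11 libraries. CXCL3 had only 32 to 87 counts per library. Beside the 9.14% of all genes that were called lower, 1 of these 9 passed the threshold. That gene, PARM1, 488 kb away and at 0.783 CPM in siNC library 1, had a log2 fold change of -1.48 (SE 0.366, edgeR adjusted p = 0.0171), with only 18 to 64 counts per library. Without siPRR11 library 2 its value was -1.18 with an adjusted p of 0.103. EPGN, the gene of the EGFR ligand epigen at -136.7 kb, had 0 to 10 counts per library and was not tested.

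**Figure D3:**
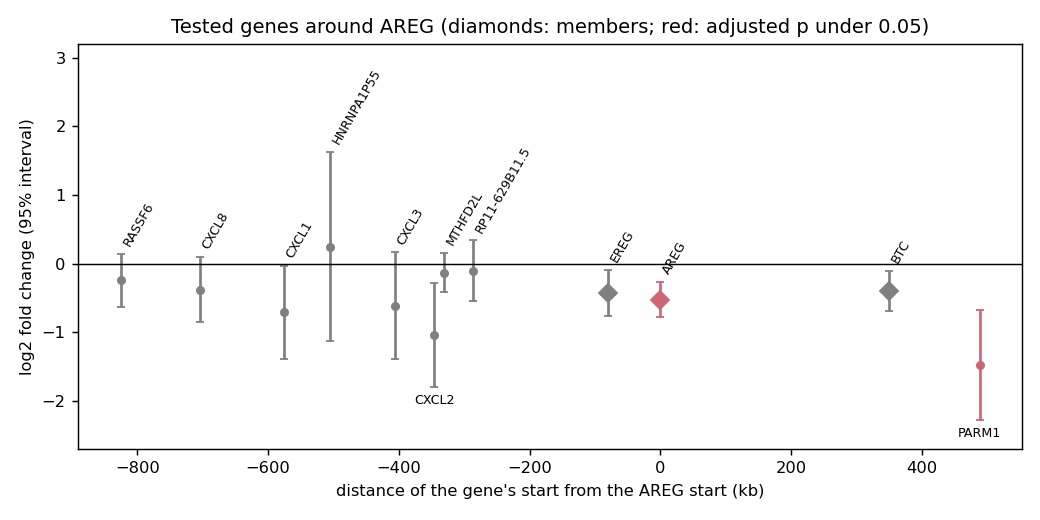
Log2 fold change with 95% interval of the 12 tested genes within 1000 kb of AREG, against the distance of each gene's start from the AREG start in kb. Diamonds are AREG, EREG and BTC, at -0.53, -0.43 and -0.40, and red marks AREG and PARM1, past an adjusted p of 0.05.

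TGFA is the ligand first named for its transforming activity. It was at 50.8 and 52.8 CPM in siNC cells and at 47.1 and 47.2 CPM in siPRR11 cells, without overlap. The difference, -0.14 on the log2 scale (SE 0.0777, 95% interval -0.31 to 0.03, edgeR adjusted p = 0.271), did not pass the threshold. The values of the 4 libraries lay close together, and fits without 1 of them gave values from -0.16 to -0.11.

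HBEGF, the heparin-binding ligand, differed more between the libraries of a group than between the groups. It was at 16.8 and 9.24 CPM in siNC cells and at 19.5 and 11.5 CPM in siPRR11 cells. In both groups library 1 was the higher one, and the groups overlapped. With the replicate number as a block the log2 fold change was 0.26 (edgeR adjusted p = 0.0117). The fit without a block gave a log2 fold change of 0.25 (SE 0.253, 95% interval -0.31 to 0.80, edgeR adjusted p = 0.566). It was 0.75 without siNC library 1 (adjusted p = 0.000963) and 0.58 without siPRR11 library 2 (adjusted p = 0.00399), and it was negative without either of the other libraries, at -0.12 without siNC library 2 and -0.18 without siPRR11 library 1.

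NRG1, the ligand of ERBB3, was the ligand with the highest mean RPKM in siPRR11 cells. It was at 92.6 and 104.3 CPM in siNC cells and at 110.9 and 122.0 CPM in siPRR11 cells, and the groups did not overlap. On the log2 scale the difference was 0.24 (SE 0.0846, 95% interval 0.06 to 0.43, edgeR adjusted p = 0.0715), and without siNC library 2 it was 0.33 with an adjusted p of 0.00693. Without siNC library 1 it was 0.16 (adjusted p = 0.220), and without siPRR11 library 2 it was 0.17 (adjusted p = 0.458). The gene runs from 31639386 to 32767959 on chromosome 8, with an exonic length of 11328 bases. Of the RPKM summed over the 6 ligands, EGF, NRG2 and NRG4, AREG took 26.3% and 23.4% in the siNC libraries and 18.8% and 17.98% in the siPRR11 libraries. NRG1 took 20.6% and 24.5% in siNC and 26.1% and 30.7% in siPRR11. TGFA held between 25.2% and 28.3% in all 4 libraries. In siNC library 1 AREG was the largest of the ligands in this sum, whereas it was TGFA in siNC library 2 and NRG1 in both siPRR11 libraries.

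The remaining ligands of the family were low. EGF was at 2.40 and 2.97 CPM in siNC cells and at 2.44 and 2.53 CPM in siPRR11 cells. NRG2 was at 7.76 and 8.49 CPM in siNC cells and at 7.46 and 6.70 CPM in siPRR11 cells. NRG4, a ligand of ERBB4, was at 1.05 and 1.28 CPM in siNC cells and rose to 1.85 and 2.30 CPM in siPRR11 cells. Its log2 fold change was 0.84 (SE 0.222, edgeR adjusted p = 0.0228). Without siNC library 1 it was 0.70 with an adjusted p of 0.0584, and without siPRR11 library 2 it was 0.67 with an adjusted p of 0.157. FBXO22, on the opposite strand, shares 38.1% of the exonic length of NRG4, and FBXO22 rose as well, from 26.6 ± 1.09 to 34.7 ± 0.868 CPM (SD, n = 2 per group, edgeR adjusted p = 0.0096). Its part in the value of NRG4 was not tested.

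HGF, the ligand of MET, had only 24 and 22 counts in the siNC libraries and 18 and 10 in the siPRR11 libraries. The MET paralog MST1R was at 1.04 to 1.78 CPM and its ligand gene MST1 at 2.01 to 2.33 CPM in the 4 libraries. Of the genes that activate HGF, ST14 (matriptase) was at 0.170 to 0.465 CPM, and HGFAC and HPN had 0 to 9 counts per library. Of their inhibitors, SPINT2 was at 1.61 to 1.87 CPM, and SPINT1 was at 10.9 and 9.57 CPM in siNC cells and fell to 7.46 and 5.81 CPM in siPRR11 cells. The log2 fold change of SPINT1 was -0.63 (SE 0.139, edgeR adjusted p = 0.00956), and -0.46 without siPRR11 library 2 (adjusted p = 0.0785). It was the only gene called among the 6 tested of this list.

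Among the genes that release the ligands, ADAM17 and ADAM19 moved in opposite directions. ADAM17, the main protease for AREG, TGFA, EREG and HBEGF, was at 212.5 and 221.4 CPM in siNC cells and fell to 151.5 and 153.3 CPM in siPRR11 cells. Its log2 fold change was -0.51 (SE 0.071, edgeR adjusted p = 0.000669), and it stayed past the threshold with each library left out. IAH1, on the opposite strand, shares 24.1% of the exonic length of ADAM17. IAH1 itself fell from 26.5 ± 1.002 to 20.05 ± 0.404 CPM in siPRR11 cells (SD, n = 2 per group, edgeR adjusted p = 0.00961). The part of IAH1 in the value of ADAM17 was not tested. RHBDF2 (iRhom2), which carries ADAM17 to the cell surface, had a log2 fold change of -0.35 (edgeR adjusted p = 0.0334), and was at -0.27 without siNC library 1 and at -0.26 without siPRR11 library 2, where the call was lost. Its relative RHBDF1 was at 18.4 CPM in both siNC libraries and at 22.9 and 21.4 CPM in siPRR11 cells (edgeR adjusted p = 0.0706). ADAM19, a metalloprotease that can cut neuregulins, was at 27.5 and 27.7 CPM in siNC cells and rose to 45.1 and 40.5 CPM, a log2 fold change of 0.63 (SE 0.0881, edgeR adjusted p = 0.000662). ADAM10, which releases BTC and EGF, was at 280.7 and 305.7 CPM in siNC cells and at 320.4 and 342.9 CPM in siPRR11 cells (edgeR adjusted p = 0.137). Of the 9 genes of the shedding list, 1 was called higher and 2 lower, and the median log2 fold change was 0.07.

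Over all 9 lists of other pathway genes, 103 of 108 genes were tested, and 29 were called, 8 higher and 21 lower in siPRR11 cells. This is 28.2%, beside 16.7% of all genes, and the median log2 fold change was -0.04. The counts of each single list stand beside 7.61% of all genes called higher and 9.14% called lower. The lists were chosen with earlier results of these data known, so the share is a description. All 29 kept their direction with each library left out, and 25, 25, 16 and 13 of them stayed past the threshold without siNC library 1, siNC library 2, siPRR11 library 1 and siPRR11 library 2. With limma on log2(RPKM + 1), 8 of them were called.

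**Figure D4:**
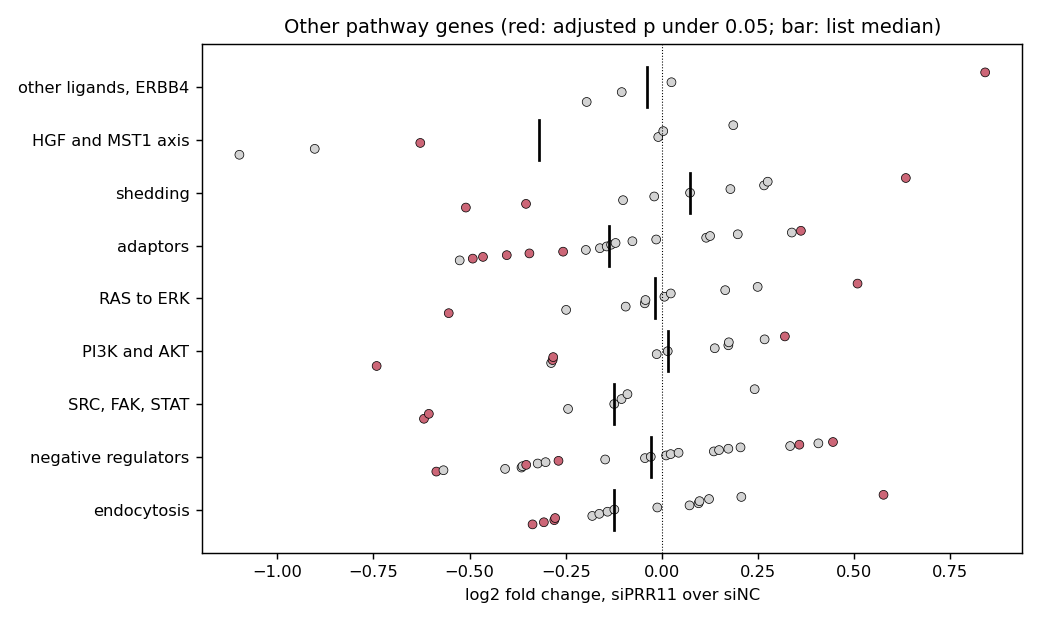
Log2 fold change, siPRR11 over siNC, of the 103 tested genes in 9 lists of ERBB and MET pathway genes, with the list median as a bar and genes past an adjusted p of 0.05 in red. Red points lie on both sides of 0, 8 higher and 21 lower.

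Of 18 adaptor genes, which couple the receptors to RAS and phospholipase C, 1 was called higher and 5 lower, and the median log2 fold change was -0.14. SHC1, an adaptor common to most receptor tyrosine kinases, rose by 0.36 on the log2 scale, from 111.8 and 123.8 CPM to 143.2 and 159.5 CPM. Among the called genes the largest falls were those of its neuronal relative SHC3, the phospholipase PLCG2 and the RAS activator SOS1, with log2 fold changes of -0.49, -0.47 and -0.40. The highest adjusted p of these 4 genes was 0.0118 (edgeR's quasi-likelihood test). The call of SHC1 was lost without siPRR11 library 2 and those of SHC3 and PLCG2 without siPRR11 library 1.

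In the step from RAS to ERK, 2 of 10 genes were called. NRAS, 1 of the 3 RAS GTPases of the list, fell from 47.1 and 50.4 CPM to 33.9 and 32.4 CPM, a log2 fold change of -0.55 (SE 0.0831, edgeR adjusted p = 0.00105). BRAF, a RAF kinase, rose from 22.5 and 30.2 CPM to 34.7 and 40.1 CPM, a log2 fold change of 0.51 (SE 0.129, edgeR adjusted p = 0.0188), and the value was 0.30 without siNC library 1, still past the threshold. In the PI3K and AKT list, 4 of 11 genes were called. The catalytic subunit PIK3CD fell by 0.74 on the log2 scale, from 14.8 and 14.6 CPM to 9.29 and 8.26 CPM (edgeR adjusted p = 0.000877). The regulatory subunits PIK3R2 and PIK3R3 both fell by 0.28, and AKT1 rose by 0.32. The calls of PIK3R2 and PIK3R3 were lost without siNC library 1 or either siPRR11 library, and that of AKT1 without either siPRR11 library.

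Of the 7 SRC, focal adhesion kinase and STAT genes, 2 were called lower and none higher. STAT3, a transcription factor activated below EGFR and MET, fell from 104.8 and 92.3 CPM to 70.3 and 58.1 CPM, a log2 fold change of -0.62 (SE 0.1, edgeR adjusted p = 0.00164). FYN, a SRC family kinase, had a log2 fold change of -0.61 at the low level of 4.24 ± 0.179 CPM in siNC cells (SD, n = 2), and its call was lost without either siPRR11 library.

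Negative regulators of the receptors were called in both directions, 2 higher and 3 lower of 23 tested. The phosphatase PTPN1, which dephosphorylates EGFR and MET, rose from 125.2 and 128.4 CPM to 168.3 and 176.9 CPM, a log2 fold change of 0.44 (SE 0.0722, edgeR adjusted p = 0.00168). PTPRJ, a receptor phosphatase, rose by 0.36, and its call was lost without siPRR11 library 2. SPRED2, an inhibitor of RAF activation, had a log2 fold change of -0.59 (edgeR adjusted p = 0.00399). The phosphatases PTPN2 and PTPRK had log2 fold changes of -0.35 and -0.27, and their calls were lost without siNC library 2 or either siPRR11 library. ERRFI1, an inhibitor of EGFR that its signal induces, was at 20.3 and 18.9 CPM in siNC cells and at 22.3 and 22.9 CPM in siPRR11 cells (edgeR adjusted p = 0.159).

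Of 15 genes for the uptake and sorting of receptors, 1 was called higher and 4 lower. AP2A1, a subunit of the clathrin adaptor AP2, rose from 23.1 and 19.4 CPM to 31.5 and 31.9 CPM, a log2 fold change of 0.58 (SE 0.0999, edgeR adjusted p = 0.00241). Among the called genes the largest falls were those of the late endosome GTPase RAB7A (-0.34), the CBL partner SH3KBP1 (-0.31) and the sorting protein STAM2 (-0.28). Their calls were lost without siPRR11 library 1, and those of SH3KBP1 and STAM2 also without siPRR11 library 2.

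Genes whose 4 log2 CPM values, centred on their mean, lay nearest to those of a receptor were found by Euclidean distance among genes whose mean log2 CPM was 1 or more. They were PTPRG (0.0108) and MAVS (0.0131) for EGFR, FAM96A (0.00548) and CTD-3138B18.5 (0.00897) for ERBB2, ZFAT (0.0117) and TNK2-AS1 (0.0127) for ERBB3, and INTS7 (0.0153) and MTND1P23 (0.0211) for MET. The distance over 4 libraries is a description.

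**Figure D5:**
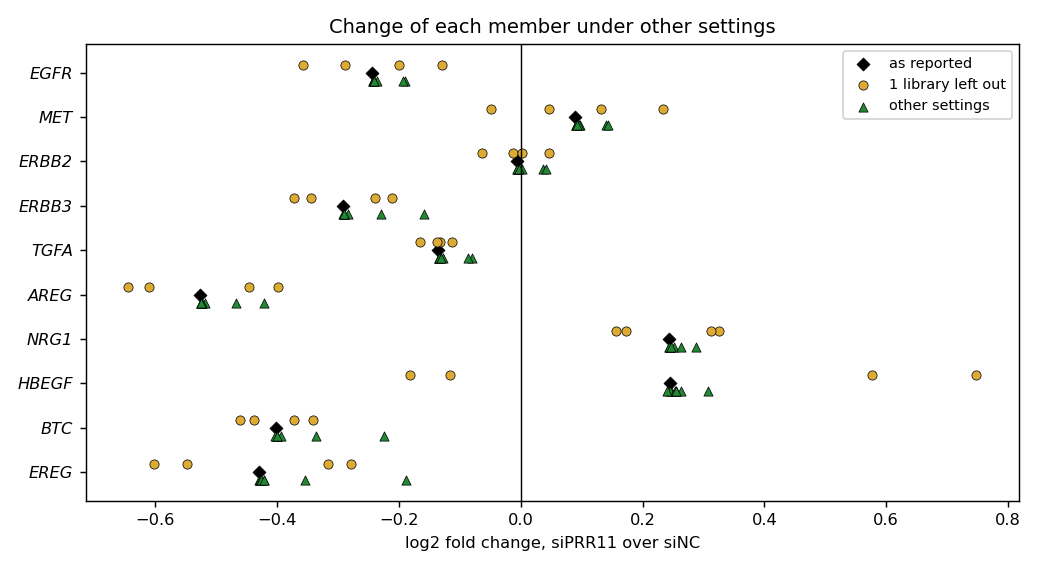
Log2 fold change of each member as reported (black diamonds), with each library left out in turn (yellow circles) and under the other settings (green triangles). AREG, EREG, BTC, EGFR, ERBB3 and TGFA stay below 0 and NRG1 above 0 throughout, while HBEGF, MET and ERBB2 cross it.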

How the data were processed

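Stranded mRNA libraries from ACHN cells were made from 2 siNC and 2 siPRR11 samples. Per the labels and the paper's methods, reads were trimmed (Trimmomatic 0.36), aligned to GRCh38 with STAR and counted with featureCounts (Subread 1.5.1). The authors deposited raw read counts per gene and RPKM values, which match count over exonic length and column total to within 3.08e-06% over 15916 genes. The annotation release and the strand setting are not given in the sources used here. Of counts from 1 to 20, 76.5% to 78.1% were even in each library, against 52.4% to 53.5% of counts from 1000 to 2000. Whether both reads of a pair were counted is not given in the sources used here.

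Counts were tested with edgeR 4.0.16 in R 4.3.3 (TMM, filterByExpr, quasi-likelihood test, condition as the only term). Of 36359 genes, 21630 were tested, with Benjamini-Hochberg adjustment over all of them and 0.05 as the threshold. Intervals are 95% intervals of the fit. Alternatives were RLE normalization, DESeq2 1.42.0, no filter, a minimum of 10 counts per library, a replicate block, limma 3.58.1 with a variance trend on log2(RPKM + 1) or log2(RPKM + 0.1), and each library left out. Halved counts were added after the data had been seen. The tests were also run on simulated counts, with independent libraries and the same dispersion for every gene. The changes set there were larger than those of the members. The simulation therefore does not bear on changes of that size, or on differences that libraries of the same number share.

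The members and lists were chosen with earlier results of these data known. Named pathway genes are the 3 largest rises and 3 largest falls of each list with an adjusted p under 0.05 and a mean log2 CPM of 1 or more, and all other ligands (NRG3 had 0 to 2 counts per library and was not tested), ERBB4 and the HGF and MST1 genes. RHBDF1, ADAM10, ERRFI1 and the overlapping genes were named after their values had been seen.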

Additional observations from a re-analysis of the deposited data

How the results depend on the processing

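The number of genes called (3622) was 6988 with the replicate number as a block, 1775 and 1878 with limma on log2(RPKM + 1) and log2(RPKM + 0.1), and 2172 to 4590 with 1 library left out. The number of members called (1) was 4 without a filter on low counts (AREG, EGFR, EREG, NRG1), 7 with the replicate block, 0 with either limma fit and 1 to 4 with 1 library left out. Pathway genes called (29) were 56, 8 and 9 in the block and limma fits and 16 to 37 with 1 library left out. The labels give only a replicate number, and whether libraries of the same number were paired is not given. Across 14193 genes the difference of library 1 and 2 in siNC had a correlation of 0.482 with that in siPRR11. With the replicate block the members past the threshold were EGFR (-0.24), ERBB3 (-0.29), EREG (-0.43), HBEGF (0.26), BTC (-0.40), NRG1 (0.24) and AREG. In that fit 6988 of 21630 genes were called. Without a filter the values were -0.24 for EGFR, -0.43 for EREG and 0.24 for NRG1, and 4460 of 34506 genes were called. Limma on log2(RPKM + 1) and log2(RPKM + 0.1) gave -0.42 and -0.47 for AREG, not past the threshold, and 0.037 and 0.042 for ERBB2, where the sign turned, as it did with at least 10 counts in every library (0.0016). With 1 library left out, the ranges were -0.36 to -0.13 for EGFR, -0.064 to 0.046 for ERBB2, -0.37 to -0.21 for ERBB3, -0.048 to 0.23 for MET, -0.64 to -0.40 for AREG, -0.60 to -0.28 for EREG, -0.18 to 0.75 for HBEGF and 0.16 to 0.33 for NRG1. These fits rest on 1 library in a group, which is assumed to vary like the other group. RLE normalization, DESeq2 and halved counts changed no member's call or sign. The cause of these shifts was not tested. The members had at least 333 counts per library, and counting error was not separated from other spread for each of them.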
